A study of Homo sapiens with 6 samples.

Results

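The genes described are 5 growth factor receptors (EGFR, ERBB2, ERBB3, MET and IGF1R) and 5 ligands of the epidermal growth factor (EGF) family (AREG, EREG, BTC, HBEGF and TGFA), taken by symbol from tables that hold 28278 symbols. All 10 were present and all 10 passed the filter on low counts, among 14002 genes tested. The study profiled RNA of cells labelled HCT116, an established human colon carcinoma line, in 3 libraries with a scrambled shRNA (shControl) and 3 with an shRNA against TRIM21 (shTRIM21). Both groups were infected with lentivirus, put under puromycin at 5 µg/ml 36 h later, kept under selection for 2 to 3 weeks and are labelled day 21, and the labels call them WT and TRIM21 knockdown. The labels give neither the number of shRNA sequences used nor whether the lines are clones or pools. They call the libraries biological replicates without naming separate cultures, so the p-values measure the spread between these libraries, which may be technical. The comparison asks how RNA levels differ between knockdown and control cells.

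EGFR, ERBB2 and ERBB3 are receptor tyrosine kinases that pair with each other when an EGF family ligand binds. ERBB2 has no known ligand of its own, and ERBB3 has little kinase activity and signals through its partners. The ligands are made as membrane proteins and released by ADAM proteases. AREG and TGFA bind EGFR, while EREG, BTC and HBEGF bind EGFR and ERBB4. MET is the receptor of hepatocyte growth factor (HGF) and IGF1R that of the insulin-like growth factors. All of these receptors feed the RAS-ERK and PI3K-AKT pathways, which drive growth in colon epithelium and in colon cancers.

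Library totals ran from 22656160 to 27123657 counts. TRIM21, the target of the shRNA, fell from 13.1 ± 2.33 CPM in shControl to 7.90 ± 1.10 CPM in shTRIM21 (SD of 3 libraries each), with no overlap between the groups (log2 fold change -0.73, SE 0.17, adjusted p = 0.0124 by edgeR's quasi-likelihood test), and the call was lost without shTRIM21 replicate 3 (adjusted p = 0.0734) and with the third replicate of each group left out (0.114). CPM here are counts scaled to the library size with TMM factors. Replicate 3 of each group had the lowest share of ribosomal RNA counts, 6.69% in shControl and 9.55% in shTRIM21 against 13.2% to 15.2% in the other 4 libraries, and shControl replicate 3 stood furthest out on the second principal component. Of 13 colon epithelial markers 10 were tested, and none of those passed edgeR's test (DESeq2 and limma-voom called 0). In edgeR's test 3 of these 10 markers had an unadjusted p under 0.05, as did 22.8% of all genes tested. Levels of these markers differed widely. DSG2 (254 CPM in shControl), KRT18 (78.7), ESRP2 (46.7), KRT8 (43.2) and VIL1 (33.8) were well detected, while EPCAM was at 18, CDX2 at 9.92, CDH1 at 4.60, KRT19 at 1.3 and CDH17 at 0.814 CPM. KRT20 and ESRP1 averaged at most 0.215 CPM in either group, and CDX1 was listed at 0. EPCAM, CDH1 and KRT19 are usually abundant in colon epithelium. HGF (408 CPM in shControl) is usually a stromal product, and the identity of the line was not tested. An exact 0 is not read as absence, since CANX and RPL7A, which nearly every cell transcribes, are also listed at 0 in all libraries. Summed fibroblast, endothelial and leukocyte markers reached at most 0.409 CPM in any library, with 5 of 7 fibroblast, 1 of 5 endothelial and 2 of 6 leukocyte markers listed at 0 in all. Summed hepatocyte markers ran from 13.3 to 27 CPM in shControl and from 12.9 to 21.1 CPM in shTRIM21, nearly all of it TF.

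Between the groups, 1 of the 10 genes fell and 1 rose. EGFR was lower and HBEGF higher in the shTRIM21 cells, while ERBB2, ERBB3, MET and TGFA had fold changes close to 1. Of all genes tested, 4.43% rose and 4.66% fell by the same test, 9.08% in either direction. For 4 of the 10 genes the groups did not overlap, where 28.1% of all tested genes showed no overlap. An unadjusted p under 0.05 in edgeR's test came for 4 of the 10 genes and for 22.8% of all tested genes. The median log2 fold change of the 10 genes was 0.05 and that of all tested genes 0.01. With 10 genes these shares rest on single genes, so each gene is given by its own values.

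**Figure D1:**
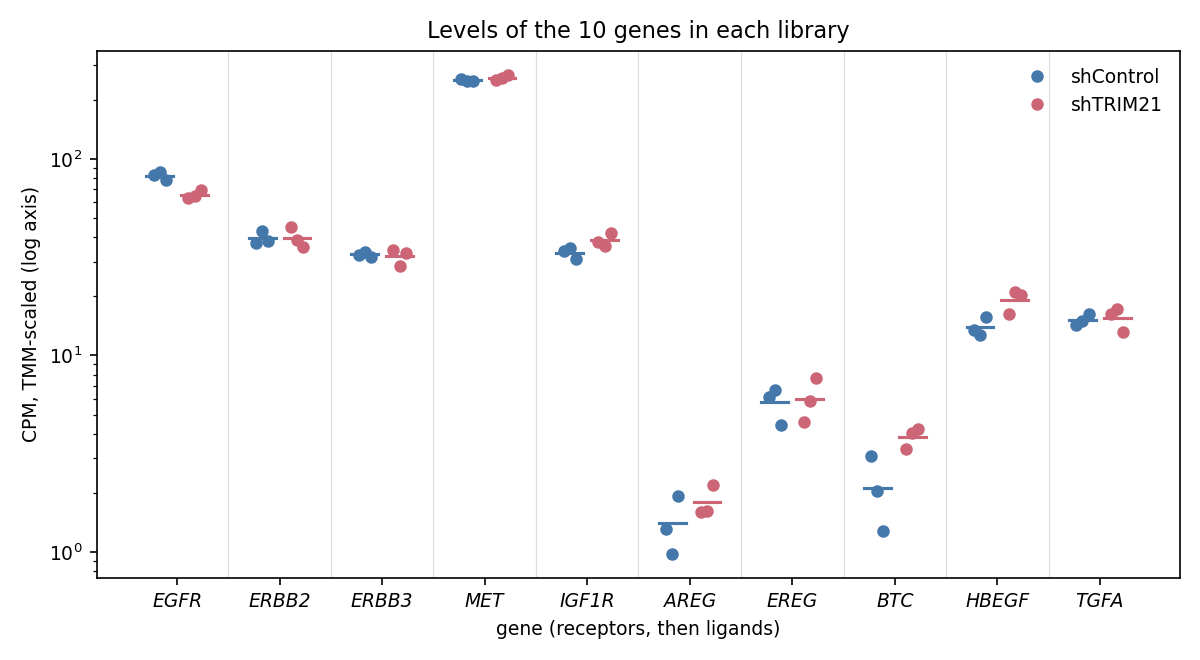
Level of each gene in each library, in CPM on a log axis, the 3 shControl libraries in blue and the 3 shTRIM21 libraries in red (replicates 1 to 3 from left to right, line at the group mean). The shTRIM21 libraries sit below all shControl libraries for EGFR, and above all of them for IGF1R, BTC and HBEGF.

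EGFR lies on the plus strand of chromosome 7 at 55019021 to 55211628 (GRCh38, ENSG00000146648). Its level was 82.8, 85.4 and 77.6 CPM in shControl replicates 1 to 3 and 62.9, 64.5 and 69.6 CPM in shTRIM21 replicates 1 to 3. Every shTRIM21 library was thus below every shControl library. These levels rest on 2024, 2091 and 2179 counts in the control libraries and 1602, 1436 and 1802 in the knockdown libraries. The mean fell from 81.9 ± 4.0 CPM in shControl to 65.7 ± 3.52 CPM in shTRIM21 (SD of 3 libraries each), a log2 fold change of -0.32 (SE 0.08), or 0.802 of the control level with a 95% interval of 0.718 to 0.895 (adjusted p = 0.0123). Among all tested genes 9.54% had a lower estimated fold change, a share that includes genes with few counts, and 4.66% were called lower. In bulk RNA, fewer cells that express a gene and less RNA per cell cannot be told apart. The call was lost without shControl replicate 1 (adjusted p = 0.0514) or 2 (0.0613) and without shTRIM21 replicate 1 (0.0548) or 2 (0.0644), with log2 fold changes between -0.31 and -0.29 in those fits. The antisense gene EGFR-AS1 shares 186 exonic bases with EGFR and held 15 to 34 counts per library.

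A ratio between genes of the same library does not depend on how libraries are scaled. EGFR had 32.5, 34.4 and 31.1 counts per 100 counts of MET in the shControl libraries and 25.1, 25.2 and 26.0 in the shTRIM21 libraries. The groups did not overlap on this ratio either, which was chosen after the values were seen and was not tested.

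ERBB2 (chromosome 17, 39687914 to 39730426, plus strand) was at 37.3, 43.1 and 38.3 CPM in shControl and 45.1, 38.8 and 35.4 CPM in shTRIM21. The highest and the lowest library were both shTRIM21, and the 95% interval of the fold change ran from 0.867 to 1.17 (adjusted p = 0.973).  ERBB2 shares 571 exonic bases with MIEN1 and 194 with PGAP3 on the opposite strand, and the counting is not stated to use strand. MIEN1 held up to 835 counts, close to those of ERBB2, so the ERBB2 level is less certain than the others.

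ERBB3, the receptor of the neuregulins (chromosome 12, 56076799 to 56103505, plus strand), was at 32.6, 33.6 and 31.8 CPM in shControl and 34.3, 28.5 and 33.0 CPM in shTRIM21. The shTRIM21 libraries spread on both sides of the controls, and the interval of the fold change was 0.846 to 1.13 (adjusted p = 0.888).

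MET lies on chromosome 7 at 116672390 to 116798386, plus strand. It was the most abundant of the 10 genes, with 255, 248 and 250 CPM in shControl and 251, 256 and 268 CPM in shTRIM21. Its groups overlapped, and with 5707 to 7013 counts per library its interval was the narrowest of the 10 on the log2 scale, 0.945 to 1.12 as a fold (adjusted p = 0.730). The difference between the EGFR and MET responses was seen in the ratio above and has no test of its own.

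IGF1R (chromosome 15, 98648539 to 98964530, plus strand) was at 34.0, 35.3 and 30.8 CPM in shControl and 37.8, 36.1 and 42 CPM in shTRIM21. All shTRIM21 libraries lay above all shControl libraries, by a margin smaller than the spread within either group. IGF1R had a log2 fold change of 0.21 (SE 0.10), an unadjusted p of 0.0407 and an adjusted p of 0.196, so it did not pass. Without replicate 3 of both groups it was 0.10 (adjusted p = 0.594).

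**Figure D2:**
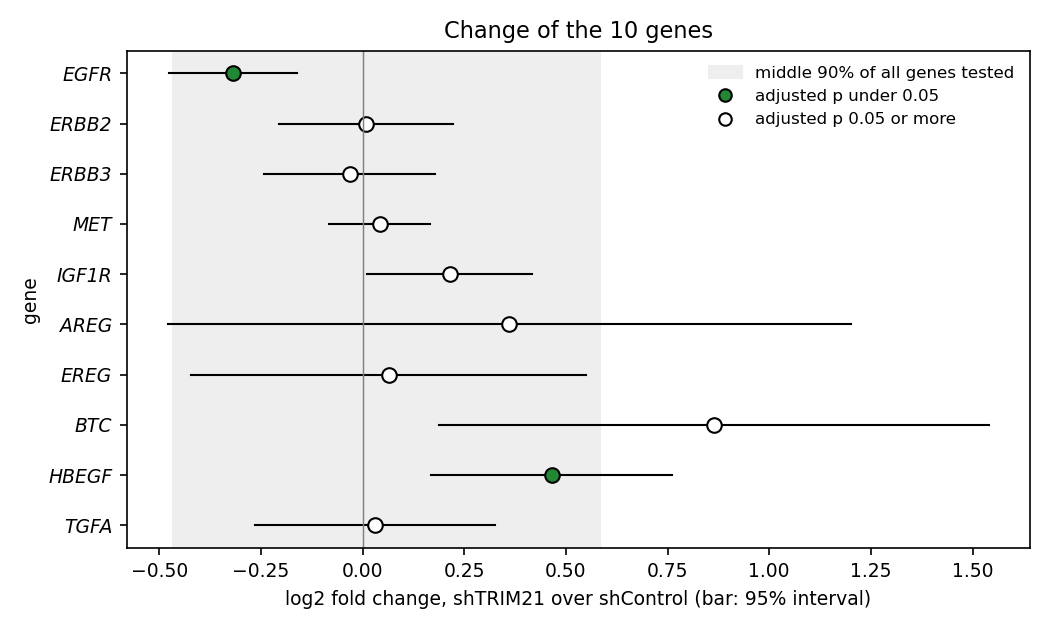
Log2 fold change (horizontal axis, shTRIM21 over shControl) of each gene with its 95% interval as a bar, filled where the adjusted p was under 0.05, and a grey band for the middle 90% of all genes tested. EGFR at -0.32 and HBEGF at 0.47 are filled; AREG and BTC, the ligands with the fewest counts, have the widest intervals.

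HBEGF, heparin-binding EGF, is encoded on chromosome 5, 140332843 to 140346631, minus strand (GRCh38, ENSG00000113070). It was at 13.4, 12.7 and 15.6 CPM in shControl and 16.2, 21.1 and 20.4 CPM in shTRIM21. The groups did not overlap, but shControl replicate 3 and shTRIM21 replicate 1 were close to each other. The mean rose from 13.9 ± 1.54 CPM in shControl to 19.2 ± 2.64 CPM in shTRIM21 (SD of 3 libraries each), a log2 fold change of 0.47 (SE 0.14), or 1.38-fold with a 95% interval of 1.12 to 1.70 (adjusted p = 0.0456). Of all tested genes, 92.4% had a lower fold change. The adjusted p was near the threshold, and the call was lost with library totals in place of TMM (0.0607), in limma-voom (0.0628), without shControl replicate 1 (0.132) or 2 (0.159) and without shTRIM21 replicate 2 (0.189) or 3 (0.160). The log2 fold change in these fits stayed between 0.40 and 0.46.

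BTC, betacellulin (chromosome 4, 74744759 to 74794686, minus strand), had the largest fold change of the 10 genes but few counts, 36 to 109 per library. It was at 3.07, 2.04 and 1.28 CPM in shControl and 3.34, 4.04 and 4.21 CPM in shTRIM21. The groups did not overlap, although shControl replicate 1 lay just under the lowest shTRIM21 library, and the shControl libraries spread more widely, relative to their mean, than those of the other 9 genes. The fitted fold change was 1.82 with a 95% interval of 1.14 to 2.91, an unadjusted p of 0.0151 and an adjusted p of 0.106, so BTC did not pass. It passed without shControl replicate 1 (log2 fold change 1.22, adjusted p = 0.0496) and with no filter on low counts (0.86, adjusted p = 0.0448), and leaving out the third replicate of each group gave 0.54 (adjusted p = 0.334).

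AREG, amphiregulin, and EREG, epiregulin, are neighbours on the plus strand of chromosome 4, at 74445134 to 74455009 and 74365143 to 74388751, in the same cluster of EGF family genes as BTC. AREG was at 1.31, 0.981 and 1.92 CPM in shControl and 1.61, 1.62 and 2.20 CPM in shTRIM21, from 24 to 57 counts per library. Replicate 3 was highest in each group, the groups overlapped, and the interval of the fold change was wide, 0.718 to 2.30 (adjusted p = 0.646). The interval holds a fall, no change and a rise, so these libraries do not settle the direction of any AREG difference. EREG was at 6.18, 6.70 and 4.45 CPM in shControl and 4.59, 5.84 and 7.65 CPM in shTRIM21. The lowest shControl and the highest shTRIM21 library were both replicate 3, and the fold change, 1.05 with an interval of 0.747 to 1.46 (adjusted p = 0.905), turned to a log2 value of -0.30 without replicate 3 of both groups.

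TGFA, transforming growth factor alpha (chromosome 2, 70447280 to 70554193, minus strand), was at 14.3, 15 and 16.3 CPM in shControl and 16.3, 17.3 and 13.1 CPM in shTRIM21. The highest and the lowest value were both shTRIM21 libraries, and the interval of the fold change was 0.832 to 1.25 (adjusted p = 0.931). HBEGF had 93.7, 84.5 and 95.6 counts per 100 counts of TGFA in shControl and 99.5, 122 and 156 in shTRIM21, a ratio chosen after the values were seen and not tested.

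**Figure D3:**
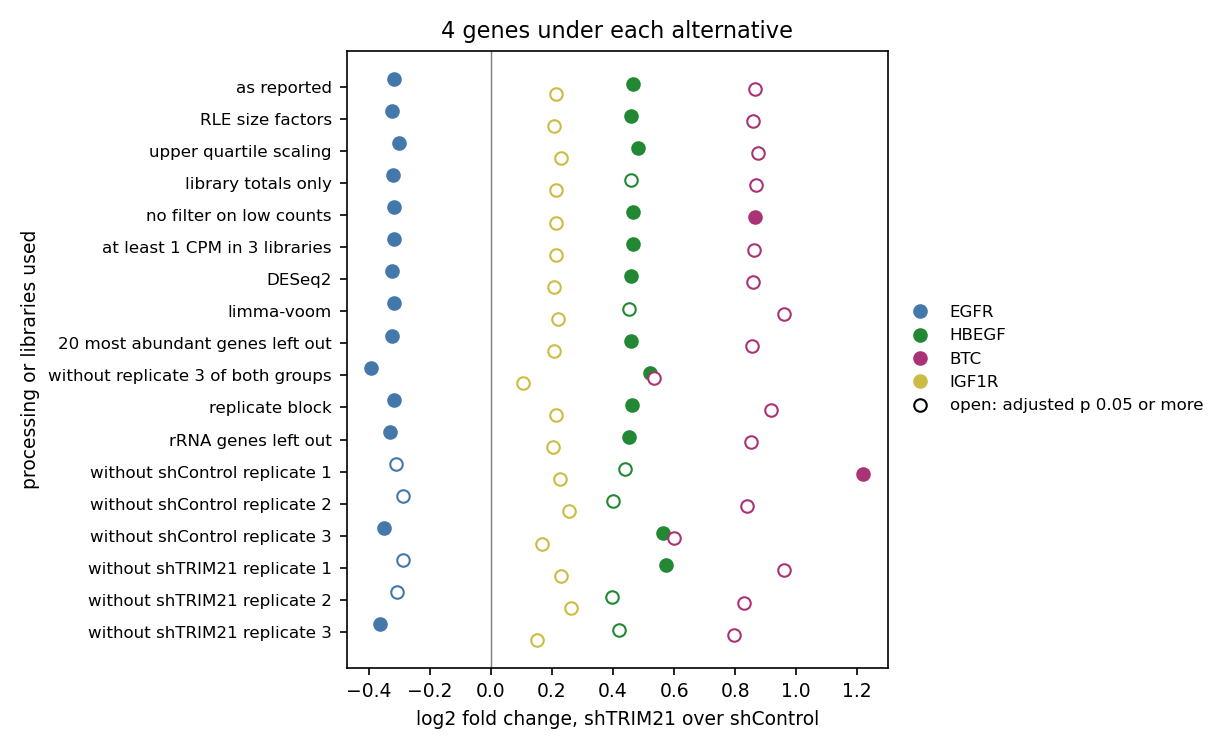
Log2 fold change (horizontal axis, shTRIM21 over shControl) of EGFR, HBEGF, BTC and IGF1R as reported and under each alternative, on a row each; filled points have an adjusted p under 0.05. No point crosses 0. EGFR is open in 4 and HBEGF in 4 of the 6 fits that leave out a library, and BTC is filled without shControl replicate 1 and with no filter on low counts.

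Levels can be compared between genes only per length, so CPM were divided by the kilobases of annotated exons (GENCODE 29). In shControl MET stood at 35.7 ± 0.464 CPM per kb (SD, n = 3), far above EGFR at 6.54 ± 0.319. Below EGFR came HBEGF (4.61 ± 0.511), ERBB2 (3.83 ± 0.301), ERBB3 (3.61 ± 0.0993), TGFA (3.07 ± 0.208) and IGF1R (2.39 ± 0.165). EREG (1.01 ± 0.206), AREG (0.852 ± 0.290) and BTC (0.757 ± 0.318) were lowest, and those 3 overlapped from neighbour to neighbour, as did ERBB2 and ERBB3. The other neighbours in this order did not overlap.

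In shTRIM21 the order differed at 2 places. HBEGF (6.37 ± 0.874 CPM per kb, SD, n = 3) had a higher mean than EGFR (5.24 ± 0.281), with overlapping libraries, and BTC (1.37 ± 0.165) a higher mean than AREG (1.10 ± 0.206) and EREG (1.05 ± 0.269), all 3 overlapping. ERBB2, ERBB3, TGFA and IGF1R kept their places, with overlap between each neighbouring pair of these 4, and IGF1R did not overlap with BTC below it. Division by the longest coding transcript instead gave MET 37.8 and EGFR 8.34 in shControl, and placed ERBB2 (8.26) above HBEGF (5.83). In shTRIM21 that length put ERBB2 (8.30) and HBEGF (8.06) above EGFR (6.69). MET was highest and TGFA and IGF1R held the sixth and seventh place by either length in both groups.

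**Figure D4:**
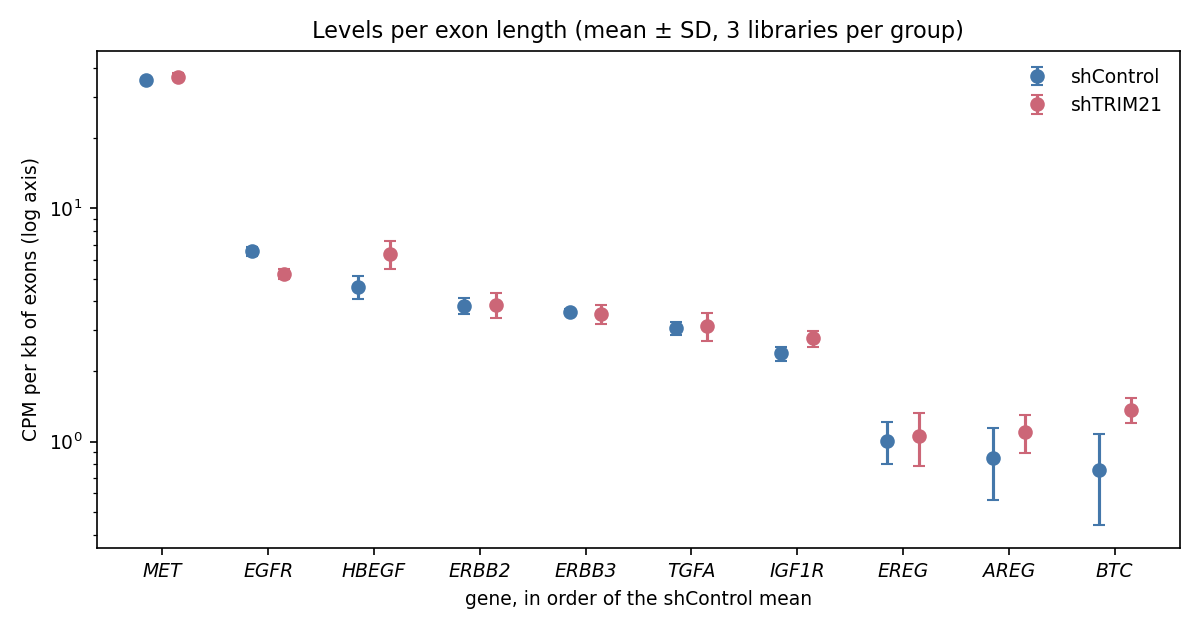
Level per kb of annotated exons (log axis) of each gene, in order of the shControl mean, as mean ± SD of 3 libraries per group. MET stands apart at the top, and EREG, AREG and BTC form the low end; the means of EGFR and HBEGF change places between the groups.

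Promoter sequences of the genes, from 250 bases before to 50 after the start, were in the RefSeq table (GRCh38.p14) for 9 of the 10. They are shown for the gene that fell, the gene that rose and MET, whose groups overlapped, with GGGCGG and its reverse complement CCGCCC, the core of the GC box bound by SP1 family factors, in capitals.
EGFR, upstream start (chr7:55018767-55019066, plus strand): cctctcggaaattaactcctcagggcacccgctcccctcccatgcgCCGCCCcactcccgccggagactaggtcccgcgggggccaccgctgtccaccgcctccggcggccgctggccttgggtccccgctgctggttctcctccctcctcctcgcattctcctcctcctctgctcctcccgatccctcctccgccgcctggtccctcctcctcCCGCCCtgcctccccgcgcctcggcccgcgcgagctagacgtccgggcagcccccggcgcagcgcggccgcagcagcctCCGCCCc
HBEGF (chr5:140346554-140346853, minus strand): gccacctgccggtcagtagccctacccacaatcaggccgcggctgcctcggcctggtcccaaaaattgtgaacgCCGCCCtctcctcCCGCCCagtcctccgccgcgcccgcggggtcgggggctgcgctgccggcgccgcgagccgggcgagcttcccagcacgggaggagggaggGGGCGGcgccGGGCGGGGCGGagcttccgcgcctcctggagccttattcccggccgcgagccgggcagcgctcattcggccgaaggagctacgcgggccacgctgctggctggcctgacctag
MET (chr7:116671946-116672245, plus strand): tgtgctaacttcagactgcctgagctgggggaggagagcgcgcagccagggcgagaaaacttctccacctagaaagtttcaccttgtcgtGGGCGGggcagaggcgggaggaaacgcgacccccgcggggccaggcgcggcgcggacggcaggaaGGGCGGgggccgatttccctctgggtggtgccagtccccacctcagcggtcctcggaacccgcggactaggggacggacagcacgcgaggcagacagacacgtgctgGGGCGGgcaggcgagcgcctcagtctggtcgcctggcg

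The GC box core occurred 3 times in this EGFR window, 5 times in HBEGF, of which 2 overlap by a base, and 3 times in MET, counting both strands. It also occurred 4 times in the upstream TGFA window, 2 times in IGF1R and 1 time each in AREG and BTC, and was in 65.0% of the promoters of tested genes and 45% of all promoters. GC content was 75.3% in EGFR, 75.0% in HBEGF and 69.3% in MET, where the median over promoters of tested genes was 64.5%. The letters TATAAA, on either strand, were in the AREG and EREG windows, in the window of a downstream EGFR start, and in 6.42% of promoters of tested genes, and AREG also held TGACGTCA, the cyclic AMP response element, found in 2.68% of them. The windows of EGFR, HBEGF and MET shown held neither. TGANTCA is a pattern wider than the AP-1 site, which has C or G in place of N. It was in 5.25% of promoters of tested genes. The ERBB2 window held it as TGATTCA, and that downstream EGFR window (chromosome 7, 55109589 to 55109888) as TGAGTCA and TGACTCA. In the windows shown, the gene that fell and the gene that rose were alike in being GC-rich and without TATAAA. These matches describe the letters only.

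An earlier look at these data picked 2 words of 7 bases in 3′ UTRs, AGTGGAA and GTGTCAC, because genes that hold them had lower and higher fold changes in the shTRIM21 cells. In the longest annotated 3′ UTR of each gene, AGTGGAA was in 0 of the 10 genes, including EGFR with a 3′ UTR of 6011 bases, and in 16.2% of 11839 tested genes. GTGTCAC was in MET alone, against 9.87% of tested genes. HGF, the ligand of MET, held AGTGGAA at 2 places. The sites are shown with 10 bases on each side and the 7 bases in capitals.
MET, GTGTCAC from base 1731 of the 3′ UTR: caaagagggtGTGTCACactgaaactc
HGF, AGTGGAA from base 1309 of the 3′ UTR: tttgaagtagAGTGGAAtctgttgaat
HGF, AGTGGAA from base 1813 of the 3′ UTR: agaaacttaaAGTGGAAgcaaaaagac

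Since both words were picked on these fold changes, their presence supports nothing. AGTGGAA was in 41.2% of genes that fell and 14.9% of those that did not pass, with longer 3′ UTRs in the former (median 2660 against 1333 bases). GTGTCAC was in 21.7% of genes that rose and 9.23% of those that did not pass, with shorter 3′ UTRs in the former (median 1192 against 1333 bases). Whether 3′ UTR length plays a part was not tested. The longest annotated 3′ UTRs of EGFR and HBEGF held neither word. Other transcripts and other words were not searched here, and what the absence means was not tested.

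Around the 10 genes, 137 genes in 9 lists of the pathway were in the tables and 100 were tested. Of these 7 rose and 5 fell, 12.0% in all, with a median log2 fold change of 0.02. That was 7% rising and 5% falling, where of all tested genes 4.43% rose and 4.66% fell, 9.08% in either direction. The difference in shares was not tested, and the lists were chosen with earlier results of these data known. Counts by list rest on few genes and were not tested. Among single genes, CBLB rose and HGF fell, and both calls held in every fit with a library left out.

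HGF, normally a product of stromal cells, was high in all libraries, with 402, 389 and 433 CPM in shControl and 302, 331 and 319 CPM in shTRIM21. It fell by 0.37 (SE 0.06) on the log2 scale (adjusted p = 0.00117), with no overlap between the groups. Per kb of exons it stood at 41.6 ± 2.31 CPM in shControl and 32.3 ± 1.49 CPM in shTRIM21 (SD, n = 3 per group), where its receptor MET stood at 35.7 and 36.7. By the longest coding transcript HGF was at 68.2 and 52.9 and MET at 37.8 and 38.9, so whether HGF lay above MET in shTRIM21 depended on the length used. The other 5 tested genes among the ligands, inhibitors and activating proteases of MET and MST1R did not pass, the inhibitor SPINT1 at 45.1 and 45.6 CPM among them.

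Most other EGF family genes were below the filter on low counts. Of EGF, EPGN, the neuregulins NRG1 to NRG4 and ERBB4, only NRG4 was tested, at 8.67 ± 2.21 CPM in shControl and 7.05 ± 1.25 in shTRIM21 (SD, n = 3 per group; adjusted p = 0.410). None was called by edgeR, DESeq2 or limma-voom, and 0 had an unadjusted p under 0.05. EPGN held at most 17 counts, in shControl replicate 3. Of the sheddases and their iRhom partners 0 of 6 tested were called by any of these tools. In edgeR's test 1 of the 6 had an unadjusted p under 0.05, against 22.8% of all genes tested. It was the iRhom gene RHBDF1 (log2 fold change 0.52, unadjusted p = 0.0136, adjusted p = 0.0997). ADAM10, a main sheddase of BTC, was at 165 ± 15.6 and 149 ± 8.93 CPM (adjusted p = 0.258), and ADAM9 at 122 ± 16.1 and 120 ± 7.06 CPM (adjusted p = 0.931). The sheddase ADAM17 was at 73.8 ± 5.28 and 76.8 ± 4.62 CPM (adjusted p = 0.721).

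Among receptor inhibitors and genes of receptor turnover 2 of 13 tested rose and 0 fell, with a median of 0.11, where 4.43% of all tested genes rose. CBLB, a ubiquitin ligase that marks activated receptors for degradation, was at 100, 98.3 and 89.3 CPM in shControl and 165, 161 and 158 CPM in shTRIM21. This rise of 0.75 (SE 0.07) on the log2 scale (adjusted p = 8.49e-07) was the largest in standard errors among the pathway genes. Its 3′ UTR holds AGTGGAA at 2 places and GTGTCAC at 1. STAM, of the endosomal sorting machinery, had 71.1 ± 3.09 CPM in shControl and 87.9 ± 7.17 CPM in shTRIM21 (SD of 3 libraries each), a rise of 0.30 (SE 0.08) on the log2 scale (adjusted p = 0.0188). The call of STAM was lost without shControl replicate 1 (0.0688) or 2 (0.0782), without shTRIM21 replicate 2 (0.0648) or 3 (0.126) and with library totals (0.0532). CBL, the relative of CBLB, was at 234 and 215 CPM (adjusted p = 0.263), and ERRFI1, an EGFR inhibitor induced by its signalling, at 49.3 and 46.2 CPM (adjusted p = 0.558). LRIG1 was listed at 0 in all libraries, which is not read as absence.

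Of the insulin and IGF axis 2 of 8 tested genes rose and 0 fell by edgeR's test, with a median of 0.12. DESeq2 and limma-voom called 3 of the 8 each, and 1595 and 1198 of all 14002 genes tested. By edgeR's test 4.43% of all tested genes rose and 4.66% fell, and with 8 genes these counts rest on single genes. IRS2, an adaptor of the insulin and IGF1 receptors, was at 7.24, 8.78 and 9.93 CPM in shControl and 14.2, 11.7 and 12.5 CPM in shTRIM21 (log2 fold change 0.56, SE 0.16, adjusted p = 0.0376). The IRS2 call was lost without shControl replicate 1 (0.168) or 2 (0.0897) and without shTRIM21 replicate 1 (0.144), 2 (0.0722) or 3 (0.0926). IGFBP6, which binds IGF2, had 27.5 ± 3.24 CPM in shControl and 35.7 ± 2.54 CPM in shTRIM21 (SD of 3 libraries each; log2 fold change 0.38, SE 0.11, adjusted p = 0.0331). That call was lost without shControl replicate 1 (0.0955) or 3 (0.0631) and without shTRIM21 replicate 1 (0.127), 2 (0.111) or 3 (0.0557). IGFBP5, another IGF binding protein, was at 1.35, 1.72 and 1.39 CPM in shControl and 0, 0.225 and 0.773 CPM in shTRIM21. Its groups did not overlap, and it did not pass (log2 fold change -2.13, SE 0.71, unadjusted p = 0.00739, adjusted p = 0.0683). The insulin receptor INSR was at 43.1 and 47.2 CPM (adjusted p = 0.466), and IGF1 and IGF2 themselves were below the filter.

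**Figure D5:**
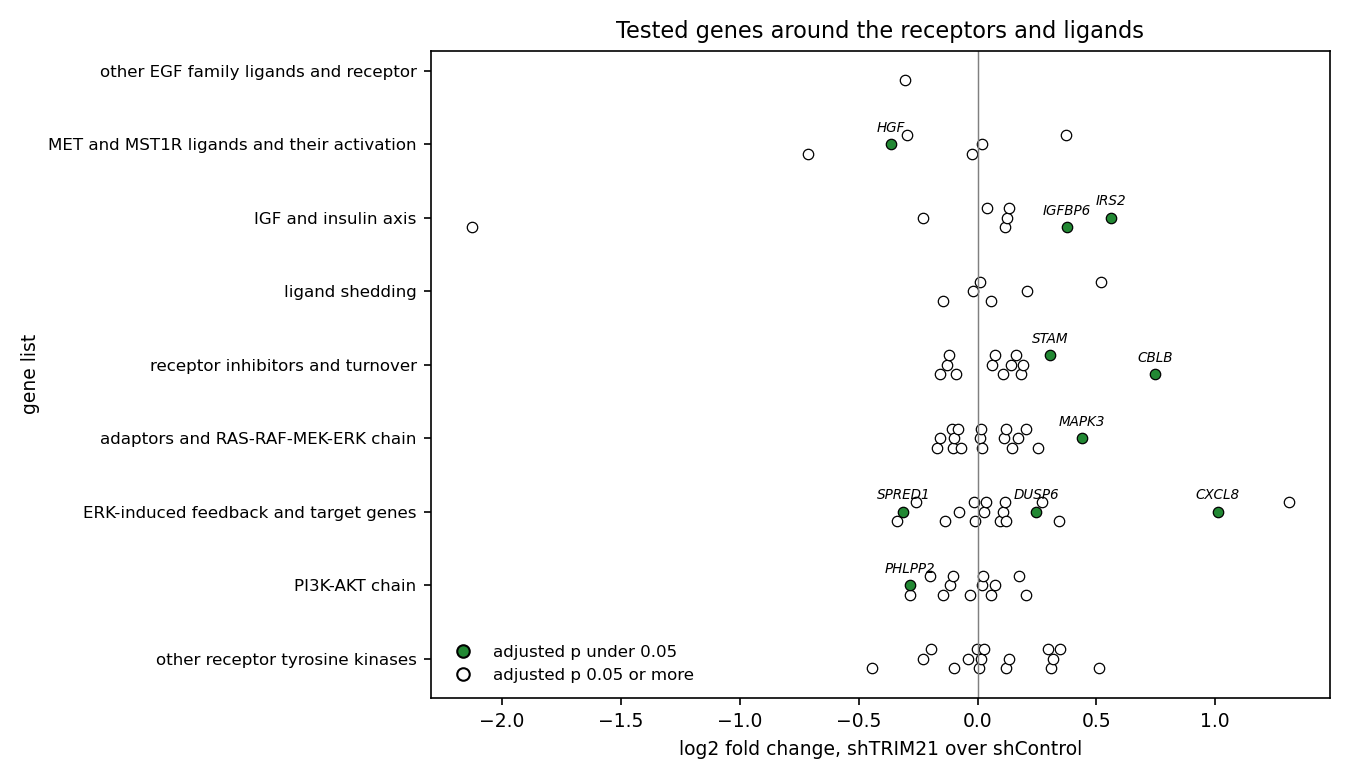
Log2 fold change (horizontal axis, shTRIM21 over shControl) of the tested genes of each pathway list, a row per list, filled and named where the adjusted p was under 0.05. The 10 named genes lie on both sides of 0, with CXCL8 at 1.01 and HGF at -0.37; 2 genes of the lists are not shown, and vertical offsets within a row only separate points.

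Downstream of the receptors, the adaptor and RAS-RAF-MEK-ERK chain had a median log2 fold change of 0.01 over 19 tested genes. MAPK3, which encodes the kinase ERK1, was at 20.5, 21.9 and 17 CPM in shControl and 28.4, 25.6 and 26.5 CPM in shTRIM21. It rose by 0.44 (SE 0.12) on the log2 scale (adjusted p = 0.0254), with no overlap between the groups. The MAPK3 call was lost without shControl replicate 1 (0.0572), without shTRIM21 replicate 1 (0.0977), 2 (0.0635) or 3 (0.0800) and with the third replicate of each group left out (0.0705).

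Of 18 tested genes that ERK signalling induces, 2 rose and 1 fell, with a median of 0.06, where 4.43% of all tested genes rose and 4.66% fell. CXCL8, interleukin 8, was at 3.93, 5.39 and 6.73 CPM in shControl and 14.0, 10.5 and 7.92 CPM in shTRIM21 (log2 fold change 1.01, SE 0.23, adjusted p = 0.00893), a call lost without shTRIM21 replicate 1 (0.0710). DUSP6, the phosphatase that switches off ERK, rose by 0.25 (SE 0.07; adjusted p = 0.0355), a call lost without any library other than shControl replicate 3 (0.0575 to 0.181) and with library totals (0.0970). SPRED1, an inhibitor of RAS activation, fell by 0.31 (SE 0.08; adjusted p = 0.0196), a call lost without shControl replicate 1 (0.0516) and without shTRIM21 replicate 1 (0.0978) or 2 (0.0610). In edgeR's test 6 of the 18 had an unadjusted p under 0.05, against 22.8% of all genes tested. Of all genes tested, 28.1% showed no overlap between the groups. Another 3 genes of the list had an unadjusted p under 0.05, no overlap between the groups and no adjusted p under 0.05. They were DUSP4 (log2 fold change 1.31, adjusted p = 0.0729, from 0.723 and 1.80 CPM), IER3 (0.27, adjusted p = 0.142) and ETV4 (-0.26, adjusted p = 0.138). In the PI3K-AKT chain 1 of 13 tested genes fell and 0 rose, with a median of -0.03, where 4.66% of all tested genes fell. PHLPP2, a phosphatase of AKT, fell by 0.28 (SE 0.07; adjusted p = 0.0196), a call lost without shControl replicate 1 (0.0632) or 2 (0.0528), without shTRIM21 replicate 1 (0.0943) and with library totals (0.0512).

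Of 16 other receptor tyrosine kinases tested, 0 passed edgeR's test and limma-voom's. In DESeq2, which called 1595 of all 14002 genes tested, 1 of the 16 passed. In edgeR's test 3 had an unadjusted p under 0.05, as did 22.8% of all genes tested. The 3 were EPHB2 (log2 fold change -0.44, adjusted p = 0.0541), TYRO3 (0.30, adjusted p = 0.0801) and DDR1 (0.51, adjusted p = 0.0944). AXL, the most abundant of the 16 by counts, was at 379 ± 17 and 386 ± 12.2 CPM (SD, n = 3 per group, adjusted p = 0.834), and RYK at 89.3 ± 9.49 and 90.2 ± 6.38 CPM (adjusted p = 0.944). Among the 5 receptors of the main group and these 16, EGFR was the only gene called by edgeR's test. Of all genes tested, 9.08% were called, so this count does not set the receptors apart.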

How the data were processed

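RNA-seq was made from ribosome-depleted total RNA, in 6 libraries labelled HCT116, 3 per group. Each deposited file holds raw counts by gene symbol. TopHat2 2.1.1, edgeR 3.38.1, limma 3.52.2 and hg38 are named, per the submitters' processing notes; for the counting tool, annotation and strand setting, the sources used here name none. The test was edgeR 4.0.16 under R 4.3.3: its default filter, TMM scaling, quasi-likelihood test of shTRIM21 against shControl without covariates, Benjamini-Hochberg adjustment over 14002 genes, threshold 0.05. SE is the log2 fold change divided by the square root of F, and 95% intervals use the test's degrees of freedom. CPM use TMM-scaled sizes. The biological coefficient of variation was 10.7%. The script was tested on simulated data. Alternatives used DESeq2 1.42.0, limma-voom (limma 3.58.1), other scaling and filters, and libraries left out. Positions, exon lengths and 3′ UTRs are from GENCODE 29 (GRCh38), promoters from RefSeq, read with Python 3.11.15. Members, lists and alternatives were chosen with earlier results of these data known. Named list genes are up to 4 per list with the smallest adjusted p, plus 2 by counts where none passed; others named were chosen after their values were seen. Results of 2 list genes are not reported here. Same-numbered libraries correlated at 0.096, -0.0123 and 0.0907 in their deviations from the group means, and differently numbered ones at -0.121 to 0.048. These values do not settle whether the numbers mark pairs. The fit is unpaired, and a fit with a replicate block is given among the alternatives.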

Additional observations from a re-analysis of the deposited data

How the results depend on the processing

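Of 17 alternatives besides the test against a fold of 1.5, none reversed a gene that passed. EGFR ranged from -0.39 to -0.29 and HBEGF from 0.40 to 0.57 on the log2 scale. Over all genes, calls ran from 602 to 1737 when any 1 library was dropped and were 21 in a test against a fold of 1.5 (glmTreat; 255 at an unadjusted p under 0.05), against 1272. Calls over all genes were 888 with library totals only and 1198 in limma-voom. Of the 10 genes, 0 to 2 were called with 1 library left out, 1 with library totals only, 1 in limma-voom and 0 against a fold of 1.5 (0 at an unadjusted p under 0.05), against 2. The 0 came without shControl replicate 2 or shTRIM21 replicate 2, where 4 of the 10 had an unadjusted p under 0.05. Over all genes tested, 2811 of 14299 and 2792 of 14304 did in those 2 fits. Of the pathway genes, 4 to 14 were called with 1 library left out and 0 against a fold of 1.5 (4 at an unadjusted p under 0.05), against 12. Fewer libraries and a stricter question are part of these fits; otherwise the cause was not tested. Genes that did not pass changed sign in places: ERBB2 was -0.0027 with rRNA genes left out, an alternative added after the data were seen, and -0.092 to 0.087 with 1 library left out, ERBB3 -0.085 to 0.0433, EREG -0.15 to 0.23 and -0.30 without replicate 3 of both groups, and TGFA -0.0514 to 0.14. With the replicate block, 1699 genes, 2 of the 10 genes and 15 pathway genes were called, and it ended no call among the 10. Counts of 24 to 109 per library limit what AREG and BTC can show.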
